A study of Mus musculus with 24 samples.

Results

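Bone marrow CD11b+ cells of mice that lack STAT6 were compared with those of wild-type (WT) mice at 3 stages: control, myocardial infarction (MI) 2 weeks and MI 4 weeks. The comparison used 6 of the 24 arrays of the series, chosen by genotype, tissue and stage: 3 STAT6-KO and 3 WT, each STAT6-KO array paired with the WT array of its stage. Each was an Agilent mouse array read in a single colour, and each held RNA of cells pooled from 5 mice, with 1 array per genotype and stage. The study's methods give male mice, a Balb/C background and an age of 10 weeks for STAT6-KO and WT, with no account of the allele. Xist was higher on the STAT6-KO control array than on the other 5, as described at the end. Both MI groups came from a model of acute infarction, and the control mice had no MI. Each slide held 1 genotype of 1 tissue, with the stages in the same order of position, so slide and genotype cannot be told apart. Beside these 6, the main fit held 3 marrow arrays of the same stages from HDC-KO mice, which lack histidine decarboxylase. For HDC-KO the methods give the same sex, background and age. A further 6 spleen arrays of STAT6-KO and WT at these stages served for comparison between tissues.

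STAT6 is the transcription factor that IL-4 and IL-13 activate: their receptors signal through JAK kinases, which phosphorylate STAT6 so that it enters the nucleus and binds its target genes. In macrophages these targets mark alternative activation, and in B cells they include genes of MHC class II and of class switching. CD11b, encoded by Itgam, is the integrin that marks the myeloid cells of the marrow: neutrophils at all stages of maturation, monocytes, macrophages, eosinophils and part of the NK cells.

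Levels are log2 signals relative to the 75th percentile of each array, which was 1780, 1615 and 963 intensity units on the WT arrays and 1385, 1344 and 1762 on the STAT6-KO arrays, each set in the order control, MI 2 weeks, MI 4 weeks, the order of all values that follow. A level can be compared between arrays for 1 gene, and not between genes. The summed level of a list adds the unlogged signals of its genes, so its bright probes weigh most. Between 75.2% and 79.8% of the spots stood well above background on these arrays, and Pearson's r between arrays, taken across genes, ran from 0.977 to 0.991. Myeloid genes were bright on all 6: Itgam lay at 5.10, 5.29 and 5.60 in WT and at 5.85, 5.74 and 5.71 in STAT6-KO. Markers of other cells were also read on all 6, such as Cd3d of T cells at 3.40 on the STAT6-KO control array. Single arrays stood apart in some of these genes. The WT MI 2 weeks and STAT6-KO MI 4 weeks arrays were the highest in interferon-induced genes, the STAT6-KO MI 2 weeks array in collagen genes, and the WT control array in erythroid genes. In pooled bulk RNA, fewer cells of a type and less RNA per cell cannot be told apart.

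More genes were higher than lower in STAT6-KO marrow. Of 27023 genes and transcripts tested with limma, 1009 (3.73%) had a Benjamini-Hochberg adjusted p under 0.05, 912 (3.37%) of them higher and 97 (0.359%) lower in STAT6-KO (n = 3 arrays a genotype). Gene symbols were given for 523 of the 1009. The median difference, STAT6-KO minus WT on the log2 scale, was 1.33 among those higher and -1.03 among those lower, and 697 of the former and 54 of the latter differed more than 2-fold. All 1009 differed in the same direction in all 3 pairs, and at 980 the 3 STAT6-KO levels did not overlap the 3 WT levels, which held for 22.4% of all genes tested. The fit counts variation between pairs as error, so this agreement largely follows from the call. Over all genes tested, Pearson's r between the differences of control and MI 2 weeks was 0.55. It was 0.10 for control and MI 4 weeks and 0.33 for MI 2 weeks and MI 4 weeks. Between the pairs, the median difference over all genes tested was 0.16 at control, 0.13 at MI 2 weeks and -0.03 at MI 4 weeks. The calls rest on a spread estimated with 3 HDC-KO marrow arrays (HDC, histidine decarboxylase, makes histamine). Where all 9 arrays have a value, the HDC-KO arrays do not enter the difference itself. They do so where a value is missing, with 11 arrays or with a single array left out. With the 6 arrays alone, limma called 0 of 26362, while 4309 (16.3%) had an unadjusted p under 0.05, against 5889 (21.8%) in the larger fit. By the threshold of the study's methods, more than 2-fold at an unadjusted p under 0.05, 1267 genes passed, 1170 higher and 97 lower, and by the same test 46 passed after adjustment. Single arrays also set the count: limma called 248 genes without the WT control array, 41 without WT MI 2 weeks, 401 without WT MI 4 weeks, 144 without STAT6-KO control, 80 without STAT6-KO MI 2 weeks and 826 without STAT6-KO MI 4 weeks. Without the control, the MI 2 weeks or the MI 4 weeks pair it called 0, with 4246, 2971 and 6493 genes at an unadjusted p under 0.05. Of the called genes named below, Nab2 and Celf6 also passed after adjustment by the test of the study's methods, which leaves the HDC-KO arrays out (adjusted p = 0.0311 for each). When arrays were scaled by their median instead, the median difference over all genes moved from 0.08 to -0.05, and 631 genes were called higher and 202 lower.

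The targeted gene itself was still read in the knockout. On its brightest probe, Stat6 lay at 2.78, 2.91 and 3.21 in WT and at 1.76, 2.34 and 2.32 in STAT6-KO. All 3 STAT6-KO arrays were below all 3 WT arrays, and Stat6 fell by 0.83 ± 0.14 (SE, n = 3; limma adjusted p = 0.0361). It no longer passed with normexp or with no block by stage (adjusted p = 0.0613 and 0.101). The array held 3 Stat6 probes. The dimmer pair read 0.31, 0.64 and 1.19 in WT against -1.01, -0.41 and -0.96 in STAT6-KO, and 0.80, 1.21 and 1.99 against -0.68, -0.27 and -0.54. On these as well the genotypes did not overlap, with differences of -1.51 and -1.83, so the 3 probes fell by unequal amounts. All 3 stayed well above background on every STAT6-KO array. Where each probe lies relative to the disrupted part of the gene is not given, so the remaining signal says nothing about the protein. Of the other STAT genes on the list, Stat5b was the brightest, at 4.91, 4.85 and 5.20 in WT and 5.24, 5.28 and 5.04 in STAT6-KO. Its genotypes overlapped, and of 6 STAT genes tested (median -0.21) only Stat6 passed the test.

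Close to Stat6 on its chromosome, Nab2 was far higher in the knockout. Nab2 encodes a corepressor of the EGR transcription factors, and its levels were -1.57, -2.03 and -1.95 in WT against 2.17, 2.34 and 2.02 in STAT6-KO. The 2 sets were tight and wide apart, and Nab2 rose by 4.03 ± 0.25, or 16.3-fold (adjusted p = 0.00429). Its other probe, which is much dimmer, differed by 0.75 and did not pass (adjusted p = 0.129 over all probes). With the mean over probes the difference was 2.39 and passed. Of the 20 genes around Stat6 in the GRCm38.p6 gene table, 10 on each side, 13 could be tested and 1, Nab2, was called, against 3.73% of all genes tested. Nemp1, beyond Nab2, came nearest among the others: 0.83, 0.44 and -0.30 in WT and 2.21, 1.18 and 0.49 in STAT6-KO, higher in each pair but overlapping between genotypes, with a difference of 0.97 (adjusted p = 0.0531).

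Of 14 genes of the IL-4 and IL-13 pathway tested, 2 on the receptor side fell, against 0.359% of all genes tested. Il2rg, the common gamma chain of the type I IL-4 receptor and of the receptors for IL-2, IL-7 and IL-15, was at -1.05, -0.37 and -0.06 in WT and at -2.25, -1.87 and -1.17 in STAT6-KO. Every STAT6-KO level was below every WT level, and Il2rg fell by 1.27 ± 0.18 (2.41-fold lower, adjusted p = 0.0255). Tyk2, the JAK kinase on the IL-13 receptor chain, was at -2.07, -1.59 and -1.37 against -2.67, -2.35 and -2.15, again without overlap, and fell by 0.71 ± 0.13 (adjusted p = 0.0474). With no block by stage neither passed (adjusted p = 0.0871 and 0.165), and Tyk2 also failed with no filter on dim probes (0.0635). Both genes were lower in HDC-KO marrow too, by a mean difference of -0.82 for Il2rg and -0.43 for Tyk2. Those differences use the same WT arrays, so they are not independent of the ones in STAT6-KO. The remaining 12 of the 14 pathway genes tested did not pass, and none of the 14 was called higher. Il4ra, the ligand-binding chain shared by both IL-4 receptor types, overlapped between genotypes at -1.67, -2.08 and -1.48 against -1.82, -2.24 and -2.99. Il13ra1 differed by -0.39, Il13ra2, the decoy receptor, by 0.84, and Il4 itself by 0.57. The kinases Jak1, Jak2 and Jak3 differed by -0.01, 0.06 and -0.11. Among adaptors and brakes, Irs2 differed by -0.51, the phosphatase gene Ptpn6 by -0.35, Socs1 by -0.37, Cish by -0.07 and Socs3, the brightest of the list, by -0.17. The list's median difference was -0.26, beside 0.08 over all genes tested. It was -0.06 without the STAT6-KO MI 4 weeks array and -0.39 without the control pair.

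Of 20 genes known as STAT6 targets in macrophages, Ccl24 was the 1 that passed, against 0.359% of all genes tested called lower. It encodes eotaxin-2, a chemokine that draws eosinophils, and lay at -2.10, -2.81 and -2.09 in WT against -4.98, -4.73 and -5.31 in STAT6-KO. All 6 levels were well above background, and the genotypes stood far apart at each stage. Ccl24 fell by 2.68 ± 0.30, or 6.39-fold lower (adjusted p = 0.0137), the largest fall among called genes with a symbol read on all 6 arrays. The median of the 20 was -0.20, with -0.56 at control, 0.31 at MI 2 weeks and -0.32 at MI 4 weeks. It was 0.0006 without the WT control array and -0.36 without the MI 2 weeks pair. Chil3, which encodes Ym1 and was the brightest, was at 5.89, 5.90 and 6.46 in WT and at 6.84, 6.83 and 6.20 in STAT6-KO. It was higher in the knockout in 2 pairs and lower at MI 4 weeks. Mgl2, a lectin of alternatively activated macrophages singled out after its values were seen, was at 4.31, 4.73 and 5.11 against 3.85, 4.10 and 4.12. It was lower in every pair and did not overlap, yet the difference of -0.70 did not pass (adjusted p = 0.101).

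**Figure D1:**
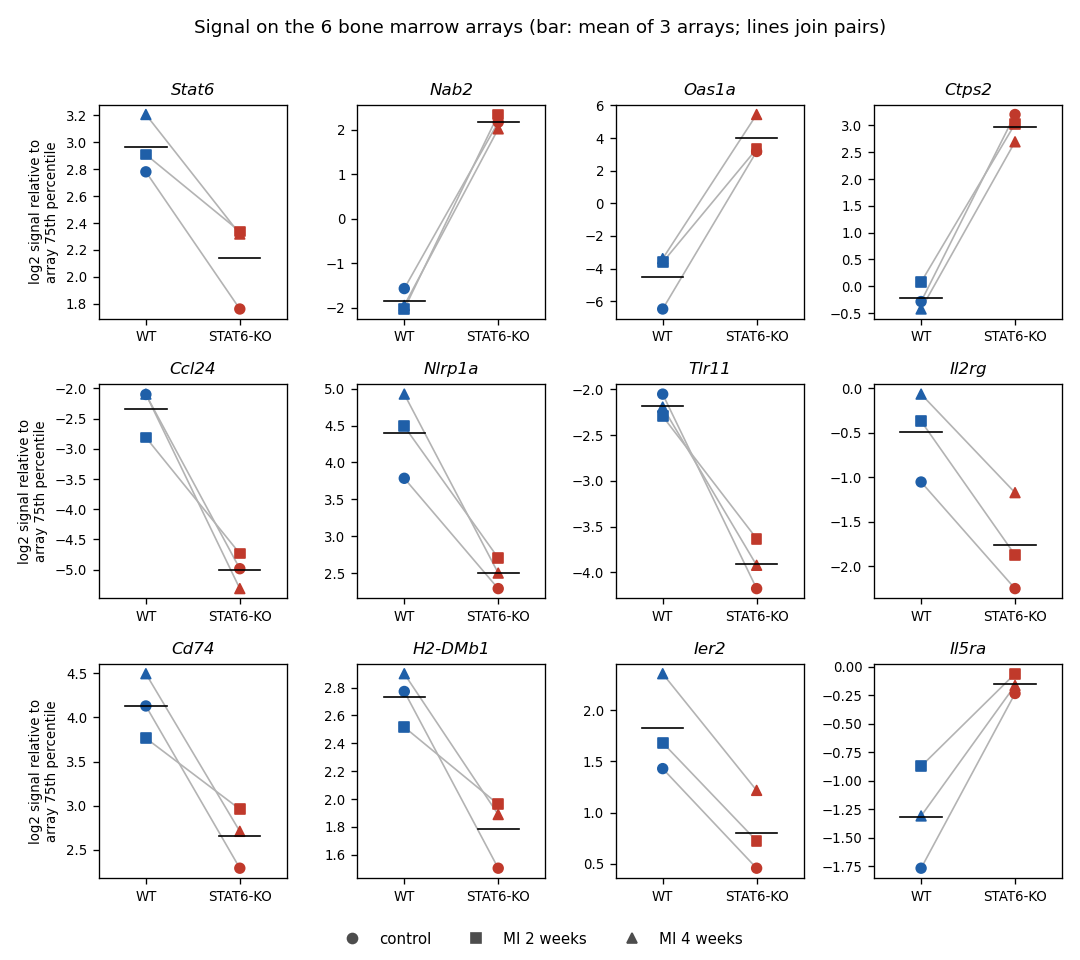
Log2 signal relative to the array's 75th percentile of 12 genes on the 6 bone marrow arrays, with a circle for control, a square for MI 2 weeks, a triangle for MI 4 weeks, grey lines joining each pair and a bar at the mean of 3 arrays. In each panel the 3 STAT6-KO levels lie wholly above or wholly below the 3 WT levels, with Oas1a the widest apart (its WT control level was not well above background) and Stat6 among the closest.

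Of 14 genes of MHC class II presentation tested, 3 fell in STAT6-KO marrow, against 0.359% of all genes tested, and 0 of the 14 had a mean difference above 0. The list's median was -0.65, and by pair -0.98 at control, -0.39 at MI 2 weeks and -0.71 at MI 4 weeks, against -0.10 in spleen. Cd74, the invariant chain that guides class II molecules to the endosome, was at 4.13, 3.77 and 4.49 in WT and at 2.29, 2.96 and 2.71 in STAT6-KO. No level overlapped, the gap was narrowest at MI 2 weeks, and Cd74 fell by 1.47 ± 0.24 (2.78-fold lower, adjusted p = 0.0330). The chains of H2-DM, which loads peptides onto class II, behaved alike. H2-DMa was at -0.29, -0.21 and 0.54 against -1.19, -0.92 and -0.88, and fell by 1.01 ± 0.18 (adjusted p = 0.0403). H2-DMb1 was at 2.77, 2.52 and 2.90 against 1.50, 1.96 and 1.89, and fell by 0.94 ± 0.17 (adjusted p = 0.0456). In neither gene did the genotypes overlap, but with no filter on dim probes neither passed (adjusted p = 0.0505 and 0.0571), and with no block by stage H2-DMa did not (0.0800). The class II chains themselves did not pass: H2-Aa differed by -1.06 (adjusted p = 0.0605, and 0.0420 with arrays scaled by their median), and H2-Ab1, the brightest of the list, was at 5.44, 5.02 and 5.69 against 4.37, 4.95 and 4.85, without overlap. H2-Eb1 was at 4.44, 4.12 and 4.38 against 3.81, 4.38 and 3.79, with overlap and higher in STAT6-KO at MI 2 weeks. Its difference was -0.32 (limma adjusted p = 0.415 over all probes). B cells express these genes strongly. Of 16 genes of the B lineage tested 0 passed in limma, 1 passed as lower with normexp, the floor, the strictest filter, the mean over probes or 11 arrays, and 2 without the STAT6-KO MI 4 weeks array. Their summed level was 29.68, 28.62 and 33.31 in WT against 11.95, 18.40 and 35.67 in STAT6-KO. The B lineage sum was thus lower in STAT6-KO at control and MI 2 weeks and slightly higher at MI 4 weeks. Their part in the result was not tested.

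Immediate early genes, the first to be transcribed after a stimulus or during cell handling, held 2 of 20 that fell, against 0.359% of all genes tested, and none that rose. Ier2 was at 1.43, 1.68 and 2.36 in WT and at 0.46, 0.72 and 1.22 in STAT6-KO, and Junb at 1.05, 0.78 and 1.94 against -0.12, 0.22 and 0.58. Both were lower in the knockout at every stage without overlap, Ier2 by -1.02 ± 0.14 (adjusted p = 0.0240) and Junb by -1.03 ± 0.19 (adjusted p = 0.0463). With no block by stage neither passed (adjusted p = 0.134 and 0.233), and Junb also failed with no filter on dim probes (0.0571). The list's median difference was -0.52, with -0.74 at control, -0.01 at MI 2 weeks, where members went both ways, and -0.83 at MI 4 weeks. Fosb reached 2.25 on the WT MI 4 weeks array and lay between -1.43 and 0.08 on the other 5. Klf2, the brightest, was at 5.44, 5.38 and 6.56 against 5.73, 5.87 and 6.02, with overlap.

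The 10 largest falls also included Nlrp1a, Tlr11, Slamf8 and Cd6. Nlrp1a, an inflammasome sensor, was at 3.79, 4.49 and 4.92 in WT and at 2.29, 2.71 and 2.50 in STAT6-KO. Its genotypes did not overlap, and it fell by 1.90 ± 0.22 (3.73-fold lower, adjusted p = 0.0145), while its dimmer second probe differed by -0.37 and did not pass (adjusted p = 0.289 over all probes). Tlr11, a Toll-like receptor for profilin and flagellin, was at -2.05, -2.29 and -2.19 against -4.18, -3.63 and -3.92. The WT levels were nearly alike and the STAT6-KO levels all lower, and Tlr11 fell by 1.73 ± 0.23 (adjusted p = 0.0192). Tlr9, the receptor for unmethylated DNA, went the other way: from -0.04, 0.14 and 0.50 in WT to 1.08, 1.21 and 1.04 in STAT6-KO, a rise of 0.91 ± 0.16 (adjusted p = 0.0376). These were 1 lower and 1 higher of 17 Toll-like receptors and adaptors, against 0.359% and 3.37% of all genes tested. The other 15 did not pass, the list's median was -0.17, and Tlr13, the brightest, differed by 0.26. Slamf8, a receptor of macrophages, fell by 1.25, from -1.67, -0.81 and -0.85 to -2.85, -2.29 and -1.96. Cd6, a receptor of T cells, was at -0.45, -0.16 and 0.11 against -1.46, -1.53 and -1.19 and fell by 1.23. In both, each STAT6-KO level was below each WT level, though with the mean over its probes Cd6 no longer passed (difference -0.59, adjusted p = 0.302). Rspo1, a secreted activator of Wnt signalling, fell by 1.62, Fam89a by 1.28 and Spaca9 by 1.17, with no overlap in any of the 3. Sele, the E-selectin of endothelium, was well above background on 3 of 3 WT arrays and 0 of 3 STAT6-KO arrays. It was at least 1.94-fold lower, a bound that takes for each dim array the higher of its lowest signal well above background and the probe's own signal. By the same bound Rgs7bp was at least 1.87-fold and Acot2 at least 1.65-fold lower. With normexp Sele, Rgs7bp and Acot2 differed by only -0.43, -0.31 and -0.25, and none of the 3 passed (adjusted p = 0.373, 0.462 and 0.576).

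The widest differences among the named genes were in the Oas1 cluster, genes of oligoadenylate synthetases that sense double-stranded RNA and activate RNase L. Oas1a was at -6.47, -3.61 and -3.39 in WT, well above background on 2 of 3 arrays, and at 3.18, 3.34 and 5.44 in STAT6-KO. It rose (adjusted p = 0.00453), by 6.95 at MI 2 weeks and 8.83 at MI 4 weeks, the pairs in which WT was read above background. A second Oas1a probe, above background on all 6 arrays, was at -5.07, -4.56 and -3.18 against 0.69, 1.17 and 3.77 and rose by 6.15 ± 0.35 (adjusted p = 0.00395 over all probes). Oas1f was at -3.94, -2.97 and -3.11 against 2.11, 2.30 and 4.59 and rose by 6.34 ± 0.47 (81.1-fold, adjusted p = 0.00453). Oas1g was above background on no WT array and on all 3 STAT6-KO arrays, at least 11.7-fold higher on its brightest probe. Its other probe, also unread in WT, was higher on all 3 STAT6-KO arrays but did not pass (adjusted p = 0.0938 over all probes). With normexp Oas1g differed by 2.13. In all 3 genes the STAT6-KO MI 4 weeks array was the highest. Oas1d, known from oocytes, was at -3.40, -3.60 and -3.80 against -1.43, -1.12 and -1.38, a rise of 2.29 ± 0.21 (adjusted p = 0.00881). These 4 of 9 members rose, against 3.37% of all genes tested. The other 5 did not pass, and the list's median was 0.32: Oas2, the brightest, was at 3.93, 5.06 and 4.18 in WT and at 3.77, 4.13 and 5.22 in STAT6-KO, highest on the same arrays as the interferon-induced genes. HDC-KO marrow, set against the same 3 WT arrays, gave differences of 6.46 for Oas1f and -0.49 for Oas1d, and Oas1a and Oas1g were higher there too at each stage. Since the WT levels enter both differences, these values are not independent of those in STAT6-KO. In spleen, with its own WT arrays, STAT6-KO minus WT was 6.64 for Oas1f and 0.16 for Oas1d, and Oas1a and Oas1g were again higher at each stage. Ctps2, a CTP synthase on the X chromosome, showed the same layout: -0.28, 0.08 and -0.42 in WT marrow and 3.20, 3.03 and 2.69 in STAT6-KO, a rise of 3.18 ± 0.15 (9.09-fold, adjusted p = 0.00429), with 2.84 in spleen and 3.08 for HDC-KO in marrow.

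Promoter windows of the genes that moved were read for the palindrome TTCNNNNGAA, the STAT site with the spacing that STAT6 prefers, which reads alike on both strands. Of the 32 named genes called higher, 21 had a window in the RefSeq table (GRCm38.p6, 300 bases each), and 3 windows held it (14.3%): Oas1a, Oas1g and Il5ra. Of the 19 called lower, 15 had a window, and 2 held it (13.3%): Nlrp1a and Rgs7bp. Among all genes of the table it stood in 2164 of 27025 (8.01%). Ccl24, Cd74 and Cd6 have no entry. The windows of Oas1a (chr5:120907476-120907775, minus strand), Oas1g (chr5:120887564-120887863, minus strand), and Nlrp1a (chr11:71144655-71144954, minus strand) are shown 5′ to 3′, since the first 2 belong to rising members of the Oas1 cluster and share their matches, and the last is the largest fall with a match. The window of Oas1f holds none. Capitals mark each match, which is a description of letters and not of a bound site.
Oas1a: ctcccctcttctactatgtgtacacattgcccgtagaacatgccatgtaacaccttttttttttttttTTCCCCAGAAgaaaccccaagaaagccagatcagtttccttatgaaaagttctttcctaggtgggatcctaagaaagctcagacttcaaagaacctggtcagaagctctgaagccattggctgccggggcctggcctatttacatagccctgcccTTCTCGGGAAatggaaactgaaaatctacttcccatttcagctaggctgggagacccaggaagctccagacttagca
Oas1g: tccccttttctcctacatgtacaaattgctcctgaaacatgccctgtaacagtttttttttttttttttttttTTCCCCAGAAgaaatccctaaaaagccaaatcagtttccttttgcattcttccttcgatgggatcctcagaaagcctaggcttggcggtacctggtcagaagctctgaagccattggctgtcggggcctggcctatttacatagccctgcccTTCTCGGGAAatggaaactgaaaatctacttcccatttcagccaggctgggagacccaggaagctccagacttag
Nlrp1a: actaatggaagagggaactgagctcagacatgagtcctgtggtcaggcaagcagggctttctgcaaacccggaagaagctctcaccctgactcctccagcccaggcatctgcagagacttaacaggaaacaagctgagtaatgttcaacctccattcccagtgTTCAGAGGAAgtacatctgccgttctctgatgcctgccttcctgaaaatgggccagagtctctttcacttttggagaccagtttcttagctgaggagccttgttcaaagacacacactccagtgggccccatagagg

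Oas1a and Oas1g held the same pair of matches, TTCCCCAGAA and TTCTCGGGAA, at bases 69 and 224 of the Oas1a window and at bases 74 and 226 of the Oas1g window. Nlrp1a held TTCAGAGGAA at base 164.

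The 10 largest rises also included Mageb16, Rapsn and Neurog3. Mageb16, a testis gene, was at -4.33, -4.07 and -4.82 in WT and at -1.55, -1.07 and -1.38 in STAT6-KO, a rise of 3.07 ± 0.16 (8.42-fold, adjusted p = 0.00429), or 1.31 with the mean over its probes. Rapsn, the scaffold of acetylcholine receptors at the neuromuscular junction, was at 0.96, 1.56 and 1.62 against 3.96, 3.95 and 3.68 and rose by 2.48 ± 0.20. Neurog3, a transcription factor of endocrine progenitors, was at 1.04, 1.11 and 1.12 against 2.83, 3.09 and 4.88. Its WT levels were nearly equal and its STAT6-KO levels spread widely, and it rose by 2.52 ± 0.45 (adjusted p = 0.0420). Krtap4-1 of hair rose by 2.44, the matrix gene Mfap4 by 2.42, Speer5-ps1 by 2.41 (1.25 with normexp) and Celf6, a splicing factor of neurons, by 2.38 (1.19 with the mean over its probes). None of these overlapped between genotypes. Genes above background in STAT6-KO alone included Ces2f, a carboxylesterase, at least 10.5-fold higher, Sprr2e of the cornified envelope at least 8.21-fold, Tmem100 of endothelium at least 6.66-fold and the pheromone receptor gene Vmn1r174 at least 5.01-fold. These bounds hold for the signals as deposited: with normexp, which adds an offset, the log2 differences were 1.47, 1.33, 1.00 and 0.79, and Ces2f and Sprr2e did not pass (adjusted p = 0.0562 and 0.0760). In all, 79 of the 1009 called were well above background on 0 of 3 WT and 3 of 3 STAT6-KO arrays, and 9 the reverse. The filter asked for signal on at least 2 of 9 arrays, which the arrays of the genotype that read these genes already met. Their levels in the other genotype are background signal. The share of this pattern among all genes tested is not given, so no conclusion is drawn from these counts.

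Of 10 eosinophil genes tested, 3 rose in STAT6-KO marrow, against 3.37% of all genes tested, 10 of 10 had a mean difference above 0, and the median was 0.81, with 0.71 at control, 0.79 at MI 2 weeks and 0.86 at MI 4 weeks. Il5ra, the chain that binds IL-5, the growth factor of eosinophils, was at -1.77, -0.87 and -1.31 in WT and at -0.23, -0.06 and -0.16 in STAT6-KO. It rose by 1.16 ± 0.19 (adjusted p = 0.0358). The ribonuclease genes Ear6 and Ear1 rose by 1.08 ± 0.14 and 0.76 ± 0.13 (adjusted p = 0.0200 and 0.0359), Ear6 from 1.87, 1.43 and 1.99 to 2.93, 2.71 and 2.89. In these 3 genes no STAT6-KO level reached down to a WT level, though with arrays scaled by their median Il5ra and Ear1 no longer passed (adjusted p = 0.0563 and 0.0808). With no block by stage 2 genes of the list passed. Granule and surface genes that did not pass differed in the same direction: Prg2, the major basic protein, by 0.85, Epx, eosinophil peroxidase, by 0.89, the eotaxin receptor gene Ccr3 by 1.07 and Siglecf by 0.61. Ear2, the brightest, was at 3.74, 3.80 and 3.96 against 4.52, 4.36 and 4.27, without overlap (difference 0.55, adjusted p = 0.0968). The summed level of the list was 27.61, 25.22 and 27.95 in WT and 47.60, 41.62 and 43.47 in STAT6-KO. The median of the differences was 0.68 with the array median and 0.78 with quantile normalization. In spleen the list's median was 0.45. The part of eosinophil number in other called genes was not tested.

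Of 8 plasma cell genes tested, 2 rose, against 3.37% of all genes tested. Prdm1, which encodes Blimp-1, the master factor of plasma cells, was at -1.89, -2.12 and -2.14 in WT and at -0.44, -0.46 and -0.89 in STAT6-KO and rose by 1.46 ± 0.14 (adjusted p = 0.00912). Derl3, of the export of misfolded proteins from the endoplasmic reticulum, was at -3.70, -4.02 and -3.78 against -2.56, -2.63 and -2.69 and rose by 1.21 ± 0.16 (adjusted p = 0.0192). Both were higher at each stage with no overlap. Jchain, the joining chain of IgM and IgA, was at 0.18, 0.73 and 1.01 against 4.01, 3.35 and 2.77, apart at every stage yet not past the test (difference 2.74, adjusted p = 0.0664). Of the 8, 6 had a mean difference above 0, and the list's median was 0.72, or 0.40 with normexp background correction. Its brightest gene, Xbp1, differed by 0.11. The summed level was 23.26, 20.71 and 20.29 in WT and 41.63, 31.97 and 24.47 in STAT6-KO, and the part of plasma cells in these rises was not tested. Id1 and Id3, inhibitors of basic helix-loop-helix factors, rose by 1.09 ± 0.14 and 1.04 ± 0.20 (adjusted p = 0.0199 and 0.0499), Id1 from 1.91, 1.80 and 1.23 to 2.89, 2.71 and 2.61. With arrays scaled by their median neither passed (adjusted p = 0.0546 and 0.104). They were the 2 of 25 myeloid transcription factors that passed, against 3.37% of all genes tested called higher, on a list with a median of -0.33 whose brightest gene, Cebpe of granulocytes, differed by 0.34. That median was -0.0033 without the STAT6-KO control array, -0.0034 without the WT control array and 0.05 without the control pair. Among 13 T cell genes, Cd4 rose by 0.79 ± 0.13 while Cd6 fell, against 3.37% and 0.359% of all genes tested. Cd4 no longer passed with arrays scaled by their median or with the mean over its probes (adjusted p = 0.0601 and 0.210). The list's median of 0.04 changed sign, to -0.08, with the former. Cd3d, the brightest, was at 3.71, 3.85 and 4.37 against 3.40, 3.38 and 3.43, lower without overlap but not past the test (adjusted p = 0.121). The summed level of the T cell list was 18.69, 19.63 and 26.45 in WT and 16.59, 17.27 and 17.63 in STAT6-KO. By contrast its median differences by pair were 0.09, 0.33 and 0.25, and 8 of 13 genes had a mean difference above 0. The part of T cells in the fall of Cd6 was not tested.

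Of 40 cell cycle genes tested 2 passed as higher and 0 as lower in limma, a share near the 3.37% of all genes tested called higher, and 0 passed with no block by stage or with no filter. Of the 40, 37 had a mean difference above 0, and the median was 0.26, largest at MI 4 weeks: 0.10 at control, 0.14 at MI 2 weeks and 0.70 at MI 4 weeks. It was 0.13 with arrays scaled by their median, 0.11 without the WT MI 4 weeks array and 0.17 without the STAT6-KO MI 4 weeks array. The list's spleen median was -0.43. The S phase cyclin gene Ccne2 was at -2.05, -2.26 and -3.31 in WT and at -1.24, -1.43 and -1.71 in STAT6-KO and rose by 1.08 ± 0.21 (adjusted p = 0.0488). Aurkb, the mitotic kinase, was at 0.29, 0.13 and -0.78 against 1.23, 0.80 and 0.81 and rose by 1.06 ± 0.19 (adjusted p = 0.0440). In both, the WT MI 4 weeks array was the lowest of the 6, and neither passed with arrays scaled by their median (adjusted p = 0.103 and 0.0971). E2f2, the brightest, differed by 0.15.

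Chemokines and cytokines of inflammation mostly did not pass. Of 24 chemokine and receptor genes, Ccr1, a receptor for CCL3 and CCL5 on myeloid cells, rose by 0.84 ± 0.14, from 3.25, 2.87 and 2.77 to 3.92, 3.84 and 3.65 (adjusted p = 0.0380, and 0.0804 with arrays scaled by their median). It did not overlap between genotypes, and it also failed with no block by stage and with 11 arrays. This 1 of 24 stands against 3.37% of all genes tested called higher, and the list's median was -0.31. Cxcl9, induced by interferon gamma and singled out after its values were seen, was at -2.08, -0.02 and -0.69 against -4.26, -3.20 and -2.63. All its STAT6-KO levels were below all its WT levels, yet the difference of -2.43 just missed the threshold (adjusted p = 0.0511). It passed in 7 alternatives, among them normexp, quantile normalization, scaling by the array median and 11 arrays (adjusted p = 0.0343, 0.0469, 0.0486 and 0.0297). It did not pass with the 6 arrays alone, with no block by stage, with no filter on dim probes or with any pair left out. Ccl6, the brightest, differed by -0.09. Of 14 inflammatory cytokine genes tested, limma called 0. Il1b, the brightest, was at 5.49, 5.35 and 6.24 in WT and at 5.05, 6.13 and 5.87 in STAT6-KO. It was lower in STAT6-KO at control and MI 4 weeks and higher at MI 2 weeks, for a mean difference of -0.01. Il6 was at -3.02, -4.21 and -2.59 against -5.00, -4.16 and -3.94, a difference of -1.09 ± 0.43 that did not pass (adjusted p = 0.215). Tgfb1 was lower in each pair without overlap between genotypes, at -0.70, -0.73 and -0.03 against -1.63, -1.08 and -0.74 (difference -0.66 ± 0.17, adjusted p = 0.0973). Il1rn, the IL-1 receptor antagonist, differed by -0.90 ± 0.25 (adjusted p = 0.114). The rest were nearer 0: Tnf -0.21, Il1a 0.01, Il18 -0.18, Il10 0.22, Il12a 0.39, Osm -0.43, Csf1 -0.63, Vegfa -0.30, Tgfb2 0.26 and Tgfb3 0.33. Tgfb2 was well above background on 2 of 3 arrays of each genotype, so its value rests partly on background signal. At an unadjusted p under 0.05 limma passed 4 of these 14 genes, against 21.8% of all genes tested, and the threshold of the study's methods passed 0, against 4.69%.

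Interferon-induced genes followed single arrays. Limma called 0 of 19 of them and 0 of 16 guanylate-binding and immunity-related GTPases. At an unadjusted p under 0.05 it passed 1 and 3 of them, against 21.8% of all genes tested, and the threshold of the study's methods 0, against 4.69%. Isg15 was at 3.14, 4.81 and 3.92 in WT and at 1.95, 2.92 and 5.03 in STAT6-KO. Ifit3 was at 1.64, 4.15 and 2.22 against -0.56, 1.00 and 4.86. In both the WT level was higher at control and MI 2 weeks and the STAT6-KO level at MI 4 weeks. The summed level of the list showed the same: 91.51, 229.60 and 120.42 in WT, 48.94, 70.35 and 259.76 in STAT6-KO. The median differences were -0.96, -1.90 and 1.07 by pair and -0.66 in the mean. Rtp4, the brightest, differed by -0.63. Among the GTPases, induced chiefly by interferon gamma, the median was -0.74 and lay below 0 in each pair, at -0.52, -1.84 and -0.33. Igtp, the brightest, was at 2.21, 4.03 and 3.45 against 1.42, 1.78 and 3.35, lower in STAT6-KO in each pair but overlapping between genotypes.

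**Figure D2:**
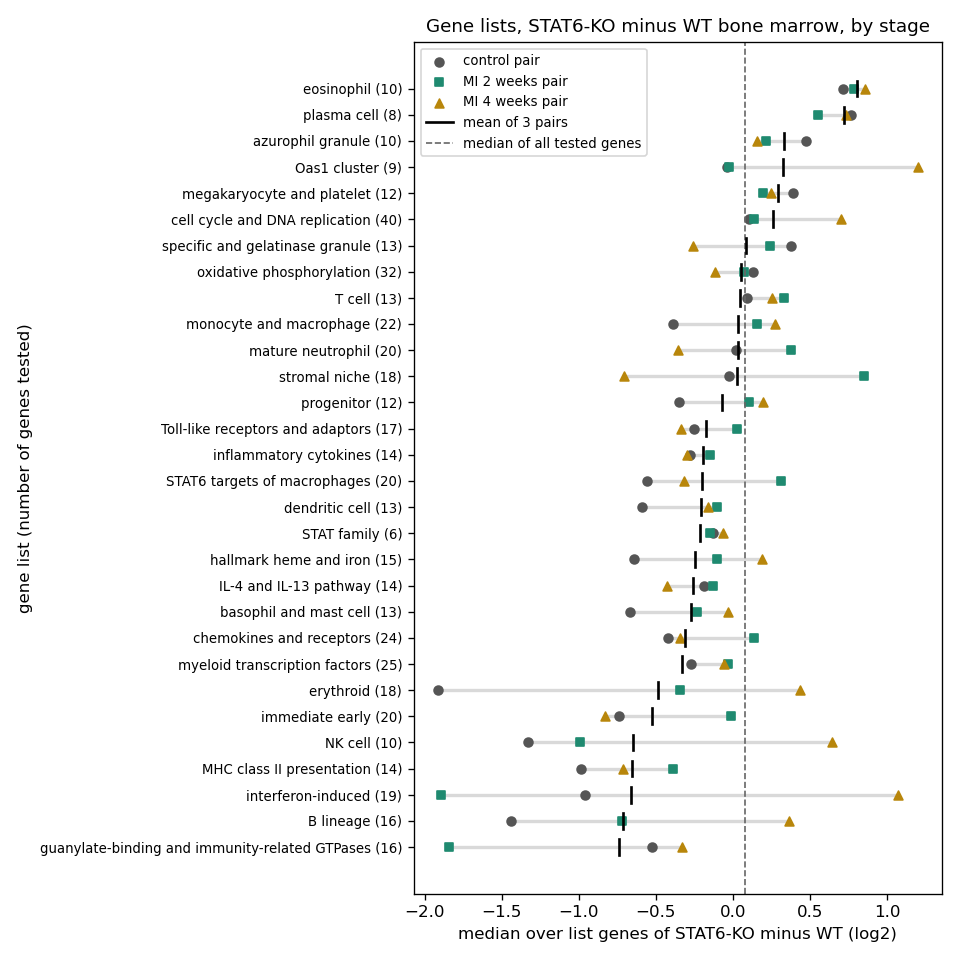
Median over the genes of each list of the STAT6-KO minus WT difference (log2) in the control, MI 2 weeks and MI 4 weeks pairs, with a black tick for the mean of 3 pairs and a dashed line at the median of all genes tested. Eosinophil, plasma cell and MHC class II lists keep to one side of 0 in all 3 pairs. So do many others, such as the azurophil granule, cell cycle, T cell, megakaryocyte, GTPase, inflammatory cytokine and immediate early lists. Interferon-induced, B lineage, NK cell and erythroid lists cross from below 0 to above 0 at MI 4 weeks. Scaling by the array median turns the T cell, mature neutrophil, monocyte, specific granule, stromal and oxidative phosphorylation medians negative.

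Markers of other cells in the pools moved with the pair as well. None of the 16 B lineage, 10 NK cell, 18 erythroid or 18 stromal genes tested passed in limma. At an unadjusted p under 0.05 it passed 4, 2, 0 and 0 of them, against 21.8% of all genes tested, and the threshold of the study's methods 0, against 4.69%. The B lineage median was -1.44 at control, -0.72 at MI 2 weeks and 0.37 at MI 4 weeks, against 0.41 in spleen. Cd79b, the brightest, was at 3.13, 3.09 and 3.51 in WT and at 1.45, 2.08 and 3.45 in STAT6-KO. The STAT6-KO control array was the lowest of the 6. Pax5, which commits cells to the B lineage, differed by -1.03 and nearly passed (adjusted p = 0.0536). NK cell genes had medians of -1.33, -0.99 and 0.65, with Nkg7, the brightest, at 0.15 in the mean. Erythroid genes had medians of -1.92, -0.34 and 0.44, and Hba-a2 was at 5.82, 4.61 and 5.29 against 4.67, 4.52 and 5.18, highest on the WT control array. The erythroid sum was 157.99, 71.11 and 103.95 in WT and 65.83, 68.83 and 98.55 in STAT6-KO. Stromal genes had medians of -0.02, 0.85 and -0.71. Col3a1, a fibrillar collagen, reached 2.18 on the STAT6-KO MI 2 weeks array and lay between -2.62 and -0.33 on the other 5. The stromal sum was 19.76, 14.30 and 20.31 in WT and 15.91, 35.11 and 19.41 in STAT6-KO, and Vcam1, the brightest of the list, differed by 0.83. Their part in the called genes was not tested.

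Among the main myeloid programs limma called none of 10 azurophil granule genes, 13 genes of specific and gelatinase granules, 20 of mature neutrophils and 22 of monocytes and macrophages. Their medians were 0.33, 0.09, 0.03 and 0.03, and all but the first turned negative when arrays were scaled by their median (-0.04, -0.10 and -0.10). Of the 10 azurophil genes, 9 had a mean difference above 0, and their summed level was 178.73, 162.08 and 190.63 in WT and 256.19, 199.91 and 208.46 in STAT6-KO. The sum of the specific granule list was 544.86, 589.94 and 864.55 against 875.46, 869.63 and 700.84, higher in STAT6-KO at control and MI 2 weeks and lower at MI 4 weeks. Elane, neutrophil elastase, was at 4.42, 4.01 and 4.45 in WT and at 4.81, 4.32 and 5.05 in STAT6-KO, higher in each pair with overlap, and Serpinb1a, the brightest of that list, differed by 0.57. Ltf, lactoferrin, differed by 0.72, S100a9 by 0.49, Csf1r, the receptor for CSF1, by -0.15 and Slc40a1, the iron exporter, by 0.04. All 3 Itgam levels were higher in STAT6-KO, yet the difference of 0.44 did not pass (adjusted p = 0.196 over all probes), and its other probes differed by -0.50 and -0.27. Oxidative phosphorylation (32 genes, median 0.05, Atp5b 0.30) and heme and iron genes (15, -0.25, Ftl1 0.20) held no called gene either. The same was true of megakaryocytes (12, 0.29, Pf4 0.05), basophils and mast cells (13, -0.27, Hdc 0.02), dendritic cells (13, -0.21, Siglech 0.14) and progenitors (12, -0.07, Myb -0.04), each with its number tested, its median and its brightest gene's difference. At an unadjusted p under 0.05, limma passed 23 of the genes on these 10 lists together (155), against 21.8% of all genes tested, and the threshold of the study's methods 0, against 4.69%.

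In spleen, where STAT6-KO and WT had their own arrays, 81 (83.5%) of the 97 genes called lower in marrow had a mean difference below 0, against 57.1% of all genes tested. Of the 910 called higher that had a spleen value, 561 (61.6%) were above 0 there, against 42.9% of all genes tested. Ccl24 differed by -3.70 in spleen, Nlrp1a by -1.88, Slamf8 by -1.27, Nab2 by 2.53 and Stat6 by -0.51. The difference between the tissues was tested by an interaction over 12 arrays: 114 of 27129 genes (0.42%) passed, 66 of them among the 1009. For Ccl24 and Nab2 it did not pass (adjusted p = 0.318 and 0.111). Mageb16 and Rapsn, 2 of the largest rises, differed by -1.36 and -0.61 in spleen, and there the interaction passed (adjusted p = 0.0255 and 0.0446). Cd6, lower in marrow, was higher in spleen by 0.47 and just missed (adjusted p = 0.0550). HDC-KO marrow shares its WT arrays with STAT6-KO marrow, so the 2 differences are given side by side. Ccl24 differed by -2.68 in STAT6-KO and -0.43 in HDC-KO, Nab2 by 4.03 and 0.12, and Stat6 by -0.83 and -0.07. By contrast Rspo1 differed by -1.62 and -1.58, Slamf8 by -1.25 and -1.27, Spaca9 by -1.17 and -1.35 and Id1 by 1.09 and 1.00. Lower in both but less so in HDC-KO were Il2rg (-1.27 and -0.82), Nlrp1a (-1.90 and -1.02) and Tlr11 (-1.73 and -0.70). The same held for Cd74 (-1.47 and -0.415), Fam89a (-1.28 and -0.73) and Cd6 (-1.23 and -0.71).

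**Figure D3:**
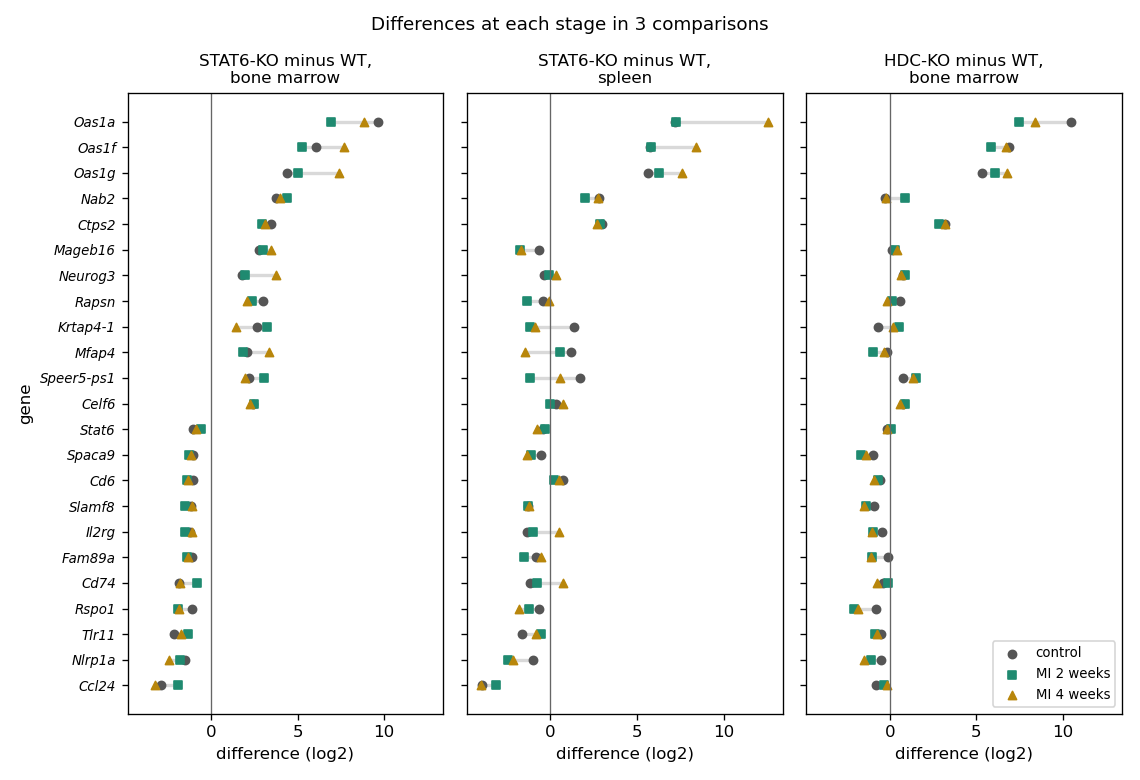
Differences (log2) at control, MI 2 weeks and MI 4 weeks of 23 genes for STAT6-KO minus WT in bone marrow, STAT6-KO minus WT in spleen and HDC-KO minus WT in bone marrow, where the first and the last share the WT arrays. Nab2 and Ccl24 stand away from 0 in both STAT6-KO panels, Oas1a, Oas1f, Oas1g and Ctps2 in all 3, and Mageb16 to the right of 0 in STAT6-KO marrow and to the left in spleen.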

How the data were processed

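The deposited files hold raw intensity from Agilent Feature Extraction 11.0.1.1, made by the authors with background subtracted and no normalization between arrays. The 0/1 marks deposited with each spot, of the unit other, gave whether it stood well above background or was an outlier. Outlier spots were dropped, spots of a probe averaged, and each log2 signal set relative to the 75th percentile of its array. The brightest probe stood for a gene. Genes well above background on at least 2 of 9 arrays, with at most 1 value missing, were tested in limma 3.58.1 (R 4.3.3, with version 1.17.8 of data.table) with stage as a block. Python 3.11.15 and matplotlib 3.10.9 drew the figures.

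The members and lists were chosen with earlier results of these data known. Named genes are the 10 largest rises and 10 largest falls among called genes with a symbol, the same sign in 3 of 3 pairs and signal well above background on all 6 arrays. To these come up to 5 of the largest bounds each way, up to 4 called members and the brightest member of each of the 31 lists, Stat6, the cytokine and IL-4/IL-13 lists, and called neighbours of Stat6. Tmem100, Mageb16, Serpina3m, Wfdc13 and Lhfpl5 were also taken for a bone marrow effect above the spleen effect. Isg15, Ifit3, Cxcl9, Pax5, Col3a1, Itgam, Mgl2, H2-Aa, Prg2, Epx, Ccr3, Siglecf, Elane, Csf1r, Nemp1, Fosb and Jchain were chosen after their values were seen. H2-Eb1 was added later, also after its values were seen, and is not counted among the named genes. The STAT6-KO bone marrow array at MI 1 week (84 spots deposited) and the HDC-KO spleen control array (229 spots) were too incomplete to use. Alternatives were normexp on the median signal, quantile normalization, scaling by the array median or by probes above background on all arrays, a floor, other filters, the mean over probes, 6 or 11 arrays, no block, the test of the study's methods, and leaving out each pair. Leaving out each single array was chosen after seeing the data.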

Additional observations from a re-analysis of the deposited data

Results flagged for a closer look

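Of the named genes, 8 passed the test of a difference in STAT6-KO effect between bone marrow and spleen. It was a limma interaction over 12 arrays (n = 3 pairs a tissue). Serpina3m, Wfdc13 and Lhfpl5 are named only for this difference, so their passing restates that choice. The bone marrow effect exceeded the spleen effect by 5.43 ± 0.47 for Tmem100 (adjusted p = 0.0255), with levels of -7.58, -7.59 and -8.14 in WT and -4.45, -4.30 and -3.36 in STAT6-KO marrow and a spleen difference of -1.70. Tmem100 was well above background on 0 of 3 WT marrow arrays, so the size, its SE and its adjusted p rest on background signal. Its test therefore cannot settle whether the tissues differ, and the excess was 0.93 with normexp. For Mageb16 the excess was 4.44 ± 0.37 (adjusted p = 0.0255). Serpina3m, at -5.60, -6.14 and -6.73 in WT and -3.56, -3.79 and -2.98 in STAT6-KO marrow, gave 4.18 ± 0.48 (adjusted p = 0.0396; spleen difference -1.47), with 2 of 3 WT marrow arrays above background and 1.47 with normexp. Wfdc13 gave 4.12 ± 0.51 (adjusted p = 0.0422; -2.49 in spleen) and Lhfpl5 4.10 ± 0.43 (adjusted p = 0.0359; -0.88 in spleen), and with normexp they gave 1.22 and 0.39. Lhfpl5 too was above background on 0 of 3 WT marrow arrays, so its size is no exact value. Its SE and adjusted p rest on background signal as well, and its test cannot settle whether the tissues differ. Mageb16 gave 1.81 with the mean over probes. Rapsn gave 3.09 ± 0.41 (adjusted p = 0.0446), Oas1d 2.13 ± 0.25 (adjusted p = 0.0396) and Celf6 2.04 ± 0.27 (adjusted p = 0.0446). All 8 were higher in 3 of 3 STAT6-KO marrow pairs. None of the 8 passed with quantile normalization or with a pair left out, and the number of alternatives in which each passed ran from 4 (Wfdc13, Lhfpl5 and Celf6) to 7 (Mageb16 and Rapsn).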

How the results depend on the processing

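Of 1009 genes called, the 6 arrays alone gave 0 and the test of the study's methods after adjustment 46 (44 higher, 2 lower). Leaving out arrays or pairs gave 0 to 826, with 0 to 774 higher and 0 to 52 lower. In the other settings the number lower was 290 with quantile normalization, 202 with the array median, 63 with no filter, 179 where every array had to show the probe above background, 170 with 11 arrays and 40 with no block. The count of genes whose STAT6-KO effect differs between bone marrow and spleen, 114, was 7 with normexp, 5 with quantile normalization, 56 with the array median, 53 with no filter, 73 with the strictest filter, and 0 without any 1 pair. Of 123 named genes, the 51 called kept their direction in all 1111 values and their call in 591. The 72 others reversed in 101 of 1583 values, over 26 genes. Reversed values were, with normexp, Il1a -0.0736 and Oas2 0.0033; with quantile normalization, Il10 -0.0346, Il1a -0.25, Tgfb2 -0.043, Slc40a1 -0.0838, Klf2 -0.10, Ftl1 -0.0653, Hdc -0.0934 and Siglech -0.087. With the array median they were Jak2 -0.0701, Il1a -0.11, Slc40a1 -0.085, Klf2 -0.0482, Xbp1 -0.0171, Pf4 -0.0816 and Hdc -0.11. With the mean over probes they were Il4ra 0.032, Jak3 0.0433, Ftl1 -0.0498, Siglech -0.19 and Itgam -0.11. With 11 arrays they were Il1a -0.14, Slc40a1 -0.0022, Pf4 -0.0107, Hdc -0.0754 and Myb 0.0027. Leaving out arrays or pairs ranged from -0.34 to 0.0911 for Ccl6, -0.35 to 0.20 Cish, -0.17 to 2.51 Col3a1, -0.0226 to 0.26 E2f2, -0.0541 to 0.55 Ftl1, -0.17 to 0.15 Hdc, -2.68 to 0.22 Ifit3, -0.19 to 0.50 Il10, -0.72 to 0.26 Il18, -0.12 to 0.25 Il1a, -0.40 to 0.21 Il1b, -0.13 to 0.10 Jak1, -0.44 to 0.11 Jak3, -0.12 to 0.39 Klf2, -0.13 to 0.0487 Myb, -0.54 to 0.45 Oas2, -0.15 to 0.28 Pf4, -0.13 to 0.49 Siglech, -0.0268 to 0.10 Slc40a1, -0.42 to 0.0441 Socs3, -0.61 to 1.06 Tgfb2, -0.0301 to 0.55 Tgfb3 and -0.0776 to 0.33 Xbp1. Fewer arrays leave fewer residual degrees of freedom (2 with 6 arrays, 4 with 9), and otherwise the cause was not tested. Slide as a block was not run, since slide and genotype coincide, and the mean signal that normexp would take was lacking, so the median signal was used. Only 75.2% to 79.8% of spots on an array were well above background, and differences in the rest come from dim signal.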

Other observations

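Genes called higher in STAT6-KO marrow were spread over the whole range of signal. In 4 classes of equal size by mean level over the 6 arrays, from the dimmest, 222, 275, 298 and 117 genes were called higher and 35, 21, 26 and 15 lower. The median difference by class was 0.22, 0.12, 0.01 and 0.04. In spleen it was -0.13, -0.07, -0.06 and -0.02. Gene families picked by symbol, chosen after their values were seen, included odorant receptors, of which 18 of 535 tested were called higher (3.36%; median 0.38, and -0.16 in spleen), the same share as the 3.37% of all genes tested. Vomeronasal receptors had 6 of 145 (4.14%; median 0.48), near that share, Mas-related receptors 1 of 15 (6.67%; 0.31), keratins and keratin-associated proteins 8 of 79 (10.1%; 0.43) and Hox genes 2 of 21 (9.52%; 0.38). Transcripts without a symbol were called higher in 4.88% of 9270, those with one in 2.59% of 17748.

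Xist, transcribed from the inactive X chromosome, stood apart on 1 array of these pools, which the methods give as male. On its brightest probe it was -3.51 on the STAT6-KO control array and between -5.77 and -5.08 on the other 5. On another probe it was -3.18 there and between -8.96 and -8.43 elsewhere. The Y-linked Eif2s3y was at 2.25, 2.29 and 2.19 in WT and at 2.65, 2.87 and 2.13 in STAT6-KO, and the 5 sex-linked genes tested had a median difference of -0.03, which turned to 0.02 with normexp.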
